A study of Mus musculus with 9 samples.

Results

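The genes described here are 38 interferon-stimulated genes, genes whose transcription interferons switch on, taken by symbol from 25108 rows of an expression table of the mouse retina. The rule was a list of symbols and set no threshold on a measured value. The list was, however, chosen with earlier results of these data known. Its shares set beside those of all genes below are therefore descriptions and not independent support. All 38 were in the table, each on 1 row. RNA came from whole retinas of C57BL/6 mice at postnatal day 17, in 3 groups of 3 libraries. OIR KO mice lacked IL-19 and had oxygen-induced retinopathy, OIR WT mice were wild type with oxygen-induced retinopathy, and RA WT mice were wild type in room air. In this model newborn pups breathe high oxygen, which prunes the retinal vessels, and after return to room air the poorly supplied retina becomes hypoxic and grows abnormal vessels. With no knockout retinas in room air among the samples used here, the genotypes were compared under retinopathy alone. The labels do not say whether the libraries of a group came from separate animals, and the p-values then rest on a spread between samples that could be partly technical.

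Interferons are secreted proteins that cells release on sensing viral or misplaced nucleic acid. Type I interferons act through a receptor whose kinases phosphorylate STAT proteins, STAT2 among them, which join IRF9 in a complex that binds the interferon-stimulated response element in front of target genes. Interferon gamma acts through another element, the gamma-activated site. In the retina, microglia and endothelial cells are among the cells known to express such genes.

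To show what lies in front of these genes, their promoters were read from RefSeq (build GRCm38.p6), from 250 bases before to 50 bases after the annotated start. Of the 38 members, 30 had an entry; Dhx58, Zbp1, Usp18, Parp9, Parp14, Gbp6, Ifi27 and Rtp4 did not. The response element was searched as GAAANNGAAA on both strands, and 16 of the 30 members (53.3%) held at least 1 match, against 3.99% of 27025 genes with a promoter window. The gamma-activated site was searched as TTCNNNGAA on both strands, which at its ends can overlap a response element, and 9 of the 30 (30.0%) held it, against 9.55% of all genes. Both motifs stood in 5 members, Eif2ak2, Bst2, Ifitm3, Gbp7 and Igtp, and neither in 10. A match is a description of the letters and not a shown binding site.

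The 250 bases before the start are printed for 6 members, 5' to 3' on the gene's strand. Isg15 (chr4:156200819-156201068, minus strand) is shown because its promoter held 3 overlapping response elements, the most of any member. Irgm1 (chr11:48871421-48871670, minus strand) held 2 overlapping elements, the first beginning at -30, counting the start base as 0. Ifit1 (chr19:34640639-34640888, plus strand) held 2 separate elements on the opposite strand. Bst2 (chr8:71537473-71537722, minus strand) held 2 overlapping elements and, just ahead of them and sharing bases with them, a gamma-activated site. Irf1 (chr11:53769764-53770013, plus strand, the first of 2 annotated starts) held the gamma-activated site alone, beginning at -90. Cmpk2 (chr12:26468965-26469214, plus strand) is shown as the member with the lowest OIR levels relative to RA WT, and it held neither motif. Capitals mark response elements, and in Irf1 the gamma-activated site.
Isg15: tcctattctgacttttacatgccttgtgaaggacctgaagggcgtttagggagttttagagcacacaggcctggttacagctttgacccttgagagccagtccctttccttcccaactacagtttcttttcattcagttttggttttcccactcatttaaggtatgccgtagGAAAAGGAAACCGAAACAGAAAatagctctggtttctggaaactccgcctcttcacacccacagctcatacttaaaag
Irgm1: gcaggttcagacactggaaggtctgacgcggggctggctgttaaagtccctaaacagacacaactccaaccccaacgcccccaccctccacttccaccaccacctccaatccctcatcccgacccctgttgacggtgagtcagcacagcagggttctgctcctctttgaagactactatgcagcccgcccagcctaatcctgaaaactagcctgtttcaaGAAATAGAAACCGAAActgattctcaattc
Ifit1: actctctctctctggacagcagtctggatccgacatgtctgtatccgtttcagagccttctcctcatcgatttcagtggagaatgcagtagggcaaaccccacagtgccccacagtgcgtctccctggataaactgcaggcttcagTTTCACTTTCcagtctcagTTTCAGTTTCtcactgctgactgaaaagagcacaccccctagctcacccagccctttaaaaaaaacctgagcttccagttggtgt
Bst2: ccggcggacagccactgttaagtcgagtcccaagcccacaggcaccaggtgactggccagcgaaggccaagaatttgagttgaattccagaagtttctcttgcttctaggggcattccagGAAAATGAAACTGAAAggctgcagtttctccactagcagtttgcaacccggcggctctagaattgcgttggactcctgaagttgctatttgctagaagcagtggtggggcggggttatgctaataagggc
Irf1: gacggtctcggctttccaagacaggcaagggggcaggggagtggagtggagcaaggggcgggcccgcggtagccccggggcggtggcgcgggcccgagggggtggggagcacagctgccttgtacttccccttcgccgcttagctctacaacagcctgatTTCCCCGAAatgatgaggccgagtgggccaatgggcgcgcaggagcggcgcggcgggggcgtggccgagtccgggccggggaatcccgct
Cmpk2: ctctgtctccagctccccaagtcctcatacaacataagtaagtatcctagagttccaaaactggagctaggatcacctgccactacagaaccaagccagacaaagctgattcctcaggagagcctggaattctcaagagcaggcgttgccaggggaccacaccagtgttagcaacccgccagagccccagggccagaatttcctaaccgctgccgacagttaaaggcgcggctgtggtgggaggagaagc

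**Figure D1:**
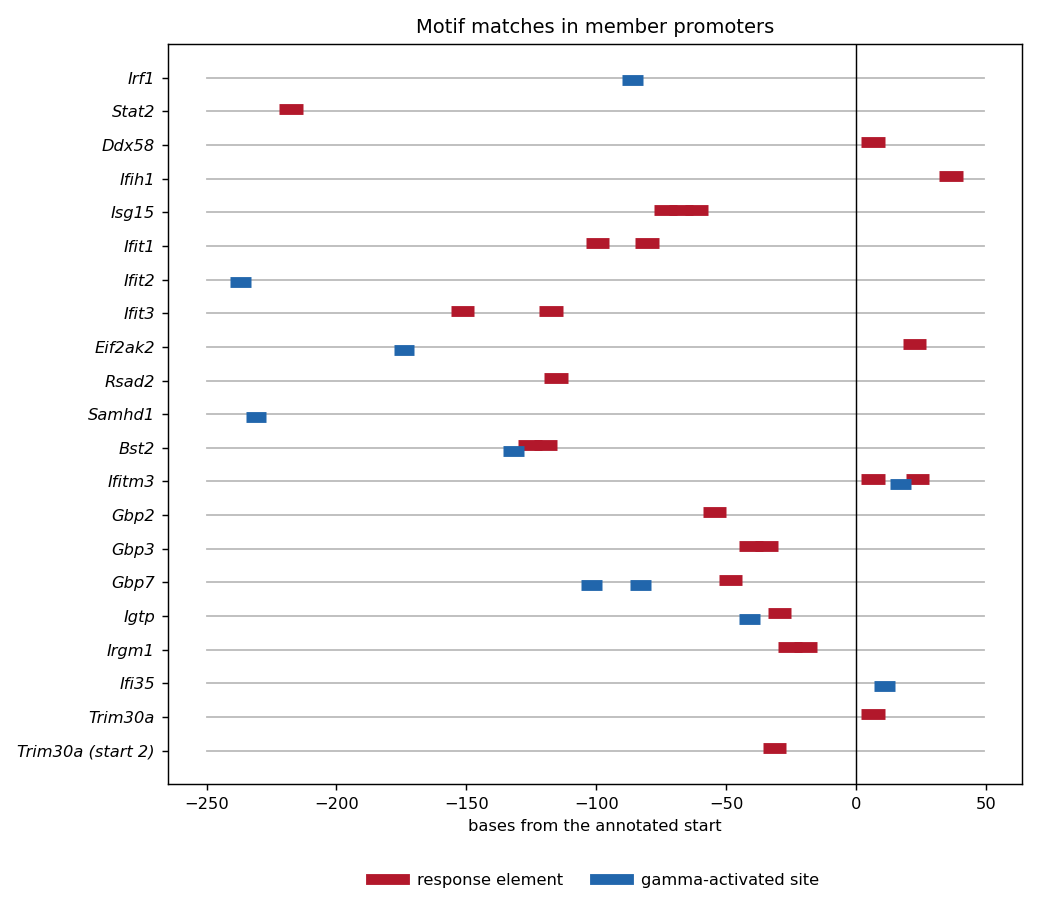
Positions of response elements (red) and gamma-activated sites (blue) along each promoter window (grey line) that held a match, with the x axis in bases from the annotated start and 1 line per start. Most matches lie upstream of the start, as in Isg15, whose 3 overlapping elements begin at -78, -72 and -66, while the response elements of Ddx58, Ifih1, Eif2ak2 and Ifitm3, and of Trim30a at 1 of its 2 starts, lie within the first 50 transcribed bases.

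Levels are given in FPKM, fragments scaled by transcript length and by the fragments mapped in the library. The totals of FPKM per library lay between 344876 and 366536. No source used here gives the read depth, and the smallest steps of the values put the relative depths between 0.853 and 1.139. Correlations between libraries of a group, across genes, were 0.974 to 0.985. In OIR KO 1 and RA WT 2 the 4 Y-linked genes checked were all listed at 0. The other libraries had them, every OIR WT library included. The libraries of OIR KO, and those of RA WT, thus did not all come from the same animal, and for OIR WT this remains unknown. Il19, the targeted gene, was listed at 0 in all libraries except RA WT 1 (0.0406 FPKM), so its level could not check the genotype of any library. The library labelled OIR KO 2 stood apart from the other OIR KO libraries in the members, in erythrocyte, lens and infiltrating myeloid markers and in Socs3. Their values are given further on, and whether OIR KO 2 belongs with its group could not be checked from them. The numbers of members called, and their median difference between OIR KO and OIR WT, are therefore also given without OIR KO 2. Vegfa, a hypoxia-induced growth factor, was at 191, 245 and 161 FPKM in OIR KO, 270, 278 and 267 FPKM in OIR WT and 69.7, 69.2 and 62.4 FPKM in RA WT, higher in every OIR library than in every RA WT library.

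The tests were run with limma on log2(FPKM + 0.5), on which fold changes of low genes come out too small. A gene was tested when it reached 0.5 FPKM in at least 3 libraries, which 15678 genes did, and was called at a Benjamini-Hochberg adjusted p under 0.05 over all of them. Of the 38 members, 35 were tested; Rsad2, Ifi44 and Zbp1 were too low. Of the 35, 32 reached 0.5 FPKM in all 9 libraries. Trim30a, Herc6 and Ifit1 passed largely through the OIR libraries, so their differences are partly fixed by the filter. The members were low to moderate in level, with a median per library of 2.88, 4.17 and 2.44 FPKM in OIR KO, 2.21, 1.84 and 2.52 FPKM in OIR WT and 1.56, 1.67 and 1.55 FPKM in RA WT.

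In wild-type retinas most members had higher means with retinopathy, and few passed the test. Irf1, Irf7, Oasl2, Ifitm3 and Bst2 rose in OIR WT against RA WT, and Cmpk2 fell. The 5 members that rose were 14.3% of the 35 tested, beside 8.04% of all tested genes, and the 1 that fell was 2.86%, beside 7.92% of all genes. The largest differences were those of Ifitm3, at 1.55 (SE 0.31, adjusted p = 0.0132) on the log2 scale, and Irf7, at 1.45 (SE 0.16, adjusted p = 0.00126). The log2 difference was above 0 in 33 of the 35, beside 52.1% of all genes, and its median was 0.49, beside 0.02 over all genes. In 18 of the 35 every OIR WT library was higher than every RA WT library, beside 17.8% of all genes. Over all 38 members without the filter that count was 19, and the median difference was 0.46. In the same libraries the summed FPKM of microglia and macrophage markers was also higher in every OIR WT library than in every RA WT library. In a bulk sample, more cells of a type and more RNA per cell cannot be told apart, and the part of these markers in the members' levels was not tested. The number that rose was 3 without OIR WT 1, OIR WT 3 or RA WT 3, 12 without OIR KO 2, which enters only the shared spread, and 8 when the fit held only these 6 libraries.

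Between OIR KO and OIR WT none of the 35 tested members was called by limma in either direction, beside 0.0574% of all genes called higher and 0.0765% called lower. At an unadjusted p under 0.05 there were 11 of the 35, beside 9.91% of all genes. The log2 difference was above 0 in 32 of the 35, beside 49.3% of all genes, and its median was 0.38, beside a median within 0.01 of 0 over all genes. In 8 of the 35 every OIR KO library was higher than every OIR WT library, beside 9.73% of all genes: Ifih1, Dhx58, Gbp3, Gbp6, Trim30a, Parp14, Cmpk2 and Irgm1. The 30 other members of the 38 overlapped between the groups. OIR KO 2 was above every OIR WT library in all 35, so the count of 8 rests on OIR KO 1 and OIR KO 3 alone. OIR KO 3 by itself was above every OIR WT library in 8 of the 35, beside 27.9% of all genes. The median difference was 0.22 without OIR KO 2 and 0.55 without OIR KO 3. No member was called without OIR KO 2 either. Leaving out OIR KO 2 keeps the same 8 higher without overlap, but the share over all genes was not computed for that setting. Members above 0 or at an unadjusted p under 0.05 were not counted without OIR KO 2.

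OIR KO and RA WT differed in both genotype and treatment. In this comparison 13 members rose: Irf1, Irf7, Ddx58, Isg15, Usp18, Ifit1, Oasl2, Bst2, Ifitm3, Parp14, Gbp3, Irgm1 and Trim30a. These were 37.1% of the 35 tested, beside 4.75% of all genes, and no member fell, beside 5.69% of all genes, with 30 of the 35 at an unadjusted p under 0.05, beside 27.6% of all genes. The log2 difference was above 0 in 34 of the 35, all except Cmpk2, beside 54.1% of all genes, and its median was 0.79, beside 0.02 over all genes. In 26 of the 35 every OIR KO library was higher than every RA WT library, beside 17.3% of all genes, and over all 38 members that count was 29. The number that rose was 7 without OIR KO 1, 6 without OIR KO 2, 8 without RA WT 1 and 7 without RA WT 3. The 3 comparisons share groups, so their counts are not independent of each other.

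**Figure D2:**
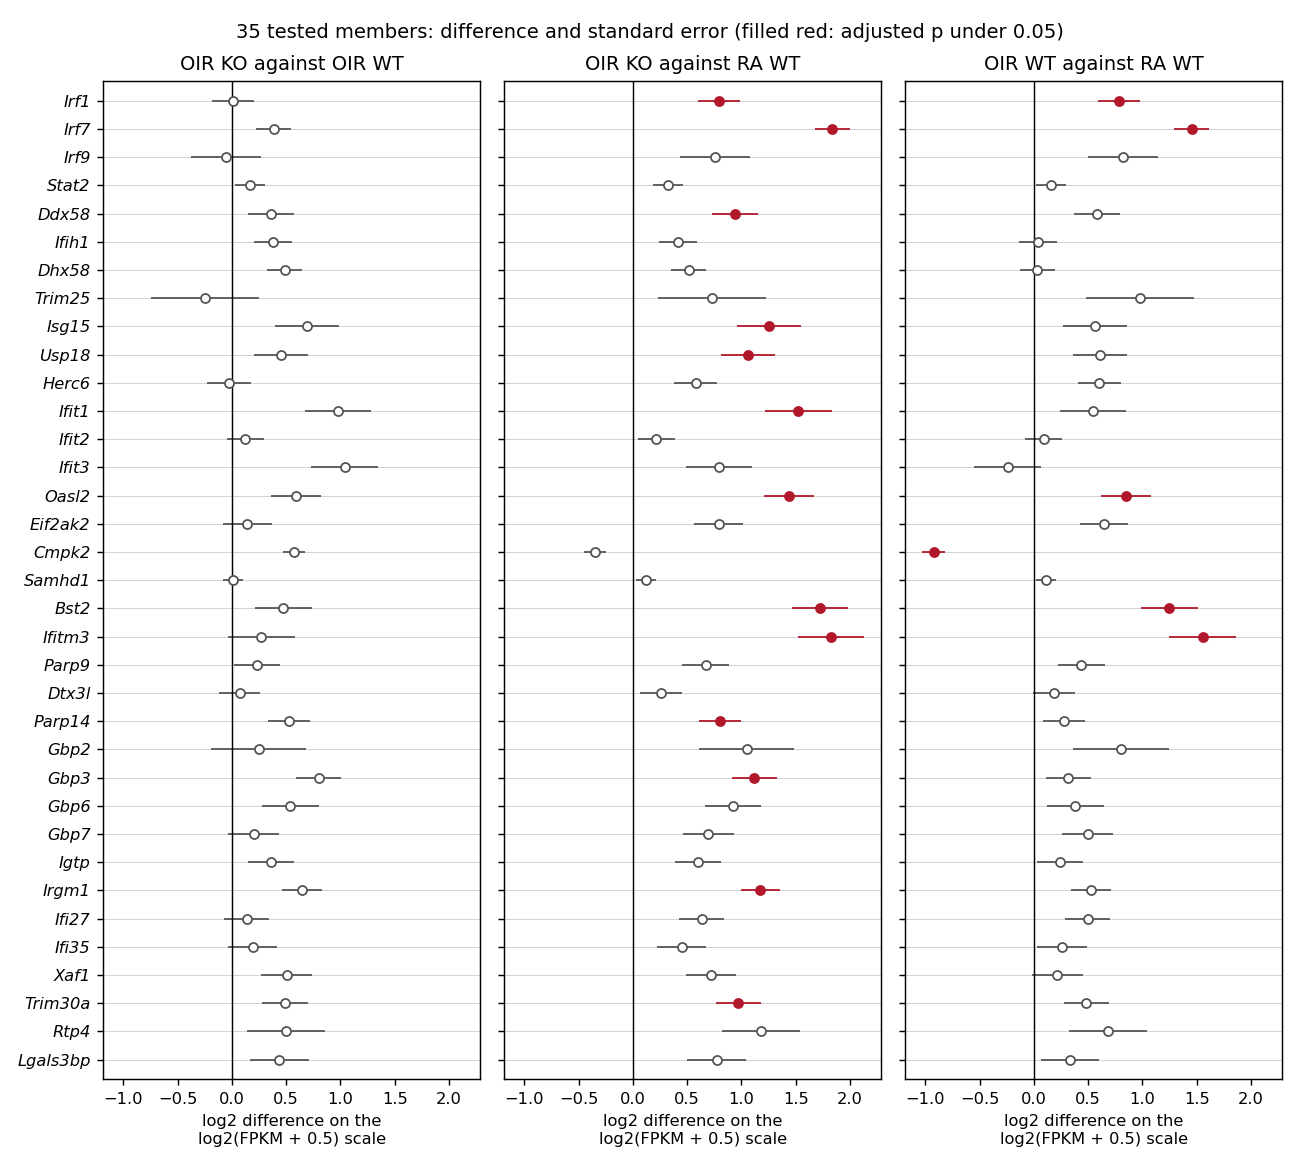
Log2 differences of the 35 tested members on the log2(FPKM + 0.5) scale (x axis; points, with bars of 1 standard error) for OIR KO against OIR WT, OIR KO against RA WT and OIR WT against RA WT. Filled red points mark an adjusted p under 0.05, which 0, 13 and 6 members reached in the panels read left to right; Cmpk2 is the only point left of 0 in the middle panel.

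**Figure D3:**
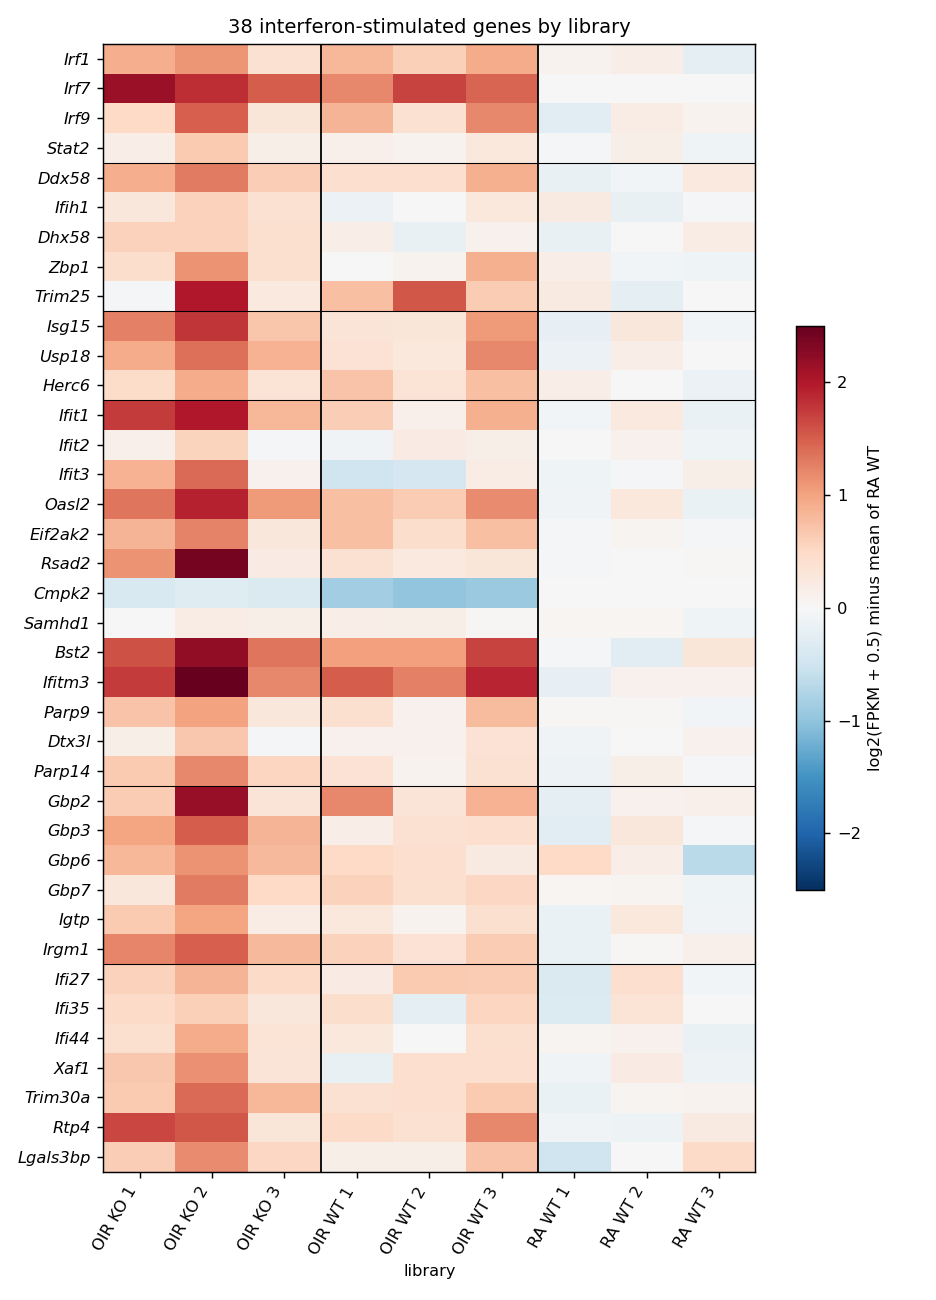
The 38 members (rows, grouped by role) in the 9 libraries (columns, OIR KO, OIR WT and RA WT), coloured by log2(FPKM + 0.5) minus the member's mean over the RA WT libraries, red for higher and blue for lower. OIR KO 2 is the deepest red column, and Cmpk2 is the only row that is blue in all 6 OIR libraries.

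Among the transcription factors, Irf7, a main driver of type I interferon responses, was the most changed. Irf7 (chr7:141262706-141266481, minus strand, GRCm38) was at 33.4, 26.9 and 21.2 FPKM in OIR KO, against 17.1, 24.0 and 20.5 FPKM in OIR WT and 7.03, 7.12 and 7.197 FPKM in RA WT. All 6 OIR libraries were above all RA WT libraries, which hardly varied, and the OIR groups overlapped. The log2 difference was 1.45 (SE 0.16, adjusted p = 0.00126) for OIR WT against RA WT, 1.84 (SE 0.16, adjusted p = 0.000868) for OIR KO against RA WT and 0.39 (SE 0.16, adjusted p = 0.479) for OIR KO against OIR WT. Both calls held without any single library. Exons of Irf7 share 45 bases with Phrf1 on the opposite strand, and without a stated strand setting reads there cannot be told apart.

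Irf1 (chr11:53770014-53778374, plus strand), a factor induced by interferon gamma, was at 6.32, 7.27 and 4.25 FPKM in OIR KO, against 5.96, 5.01 and 6.40 FPKM in OIR WT and 3.37, 3.56 and 2.57 FPKM in RA WT. Every OIR library was higher than every RA WT library, and the OIR groups had nearly the same mean. The difference was 0.78 (SE 0.19, adjusted p = 0.0231) for OIR WT against RA WT, 0.80 (SE 0.19, adjusted p = 0.0294) for OIR KO against RA WT and 0.01 (SE 0.19, adjusted p = 0.992) for OIR KO against OIR WT. The call against RA WT was lost for OIR WT without any 1 of OIR WT 1, OIR WT 3 or RA WT 3 (adjusted p of 0.0794 to 0.0814), and for OIR KO without any 1 of OIR KO 1, OIR KO 2, RA WT 1 or RA WT 3 (adjusted p of 0.0554 to 0.102), and also with only the 6 libraries compared in the fit (adjusted p = 0.0567).

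Stat2 and Irf9, parts of the complex on the response element, were not called in any comparison. Irf9 was at 9.56, 19.5 and 8.26 FPKM in OIR KO, 12.4, 8.84 and 16.0 FPKM in OIR WT and 5.37, 7.67 and 7.08 FPKM in RA WT, with all OIR libraries above all RA WT libraries and a difference of 0.82 (SE 0.32, adjusted p = 0.126) for OIR WT against RA WT. Stat2 was at 13.9, 19.6 and 13.7 FPKM in OIR KO, 13.4, 13.1 and 14.8 FPKM in OIR WT and 11.9, 13.7 and 11.4 FPKM in RA WT, and its largest difference was 0.32 (SE 0.14, adjusted p = 0.167) for OIR KO against RA WT. The OIR KO 2 library was highest of the 9 for both genes.

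Of the sensors of viral nucleic acid, Ddx58 alone was called. Ddx58 (chr4:40203773-40239828, minus strand) encodes RIG-I, which binds viral RNA in the cytoplasm, and was at 2.44, 3.37 and 1.92 FPKM in OIR KO, against 1.61, 1.60 and 2.43 FPKM in OIR WT and 0.886, 0.999 and 1.37 FPKM in RA WT. All OIR libraries were above all RA WT libraries, and OIR WT 3 lay close to OIR KO 1. The difference was 0.94 (SE 0.21, adjusted p = 0.0231) for OIR KO against RA WT, 0.58 (SE 0.21, adjusted p = 0.0958) for OIR WT against RA WT and 0.36 (SE 0.21, adjusted p = 0.63) for OIR KO against OIR WT. The call was lost without any 1 of OIR KO 1, OIR KO 2, RA WT 1 or RA WT 2 (adjusted p of 0.0635 to 0.0774).

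Ifih1, which encodes the RNA sensor MDA5, and Dhx58, which encodes the related LGP2, had a different order of groups. Ifih1 was at 0.943, 1.25 and 1.04 FPKM in OIR KO, 0.566, 0.671 and 0.921 FPKM in OIR WT and 0.878, 0.531 and 0.658 FPKM in RA WT. Dhx58 was at 1.24, 1.23 and 1.02 FPKM in OIR KO, 0.801, 0.521 and 0.753 FPKM in OIR WT and 0.521, 0.658 and 0.822 FPKM in RA WT. In both genes the 3 OIR KO libraries were above every library of the other groups, while OIR WT and RA WT overlapped. The difference for OIR KO against OIR WT was 0.38 (SE 0.17, adjusted p = 0.513) for Ifih1 and 0.49 (SE 0.16, adjusted p = 0.385) for Dhx58, neither called. Trim25, a ubiquitin ligase that acts on RIG-I, was at 2.18, 10.5 and 2.77 FPKM in OIR KO, 4.17, 7.55 and 3.81 FPKM in OIR WT and 2.74, 1.84 and 2.27 FPKM in RA WT, with high values in OIR KO 2 and OIR WT 2 and wide standard errors. Zbp1, a sensor of Z-form nucleic acid, was not tested, and lay between 0.808 FPKM in OIR KO 2 and 0.0580 FPKM in RA WT 3.

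The ISG15 system attaches a ubiquitin-like protein to other proteins and takes it off again. Isg15 (chr4:156199424-156200818, minus strand), whose promoter with 3 response elements is printed above, was at 5.36, 7.97 and 3.45 FPKM in OIR KO, against 2.53, 2.52 and 4.62 FPKM in OIR WT and 1.61, 2.46 and 1.82 FPKM in RA WT. OIR WT 3 was well above the other OIR WT libraries and overlapped OIR KO, while every OIR library was higher than every RA WT library. The difference was 1.25 (SE 0.30, adjusted p = 0.0282) for OIR KO against RA WT, 0.56 (SE 0.30, adjusted p = 0.234) for OIR WT against RA WT and 0.69 (SE 0.30, adjusted p = 0.486) for OIR KO against OIR WT. The call was lost without any 1 of OIR KO 1, OIR KO 2, RA WT 1 or RA WT 3 (adjusted p of 0.0793 to 0.0944).

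Usp18 (chr6:121245906-121270917, plus strand), the protease that removes ISG15 and dampens receptor signalling, was at 1.64, 2.44 and 1.55 FPKM in OIR KO, against 0.952, 0.855 and 2.07 FPKM in OIR WT and 0.513, 0.763 and 0.611 FPKM in RA WT. As for Isg15, OIR WT 3 stood within the OIR KO range and all OIR libraries were above RA WT. The difference was 1.06 (SE 0.25, adjusted p = 0.0275) for OIR KO against RA WT, 0.61 (SE 0.25, adjusted p = 0.132) for OIR WT against RA WT and 0.45 (SE 0.25, adjusted p = 0.609) for OIR KO against OIR WT. The call was lost without any 1 of OIR KO 1, OIR KO 2, RA WT 1, RA WT 2 or RA WT 3 (adjusted p of 0.0514 to 0.0941). Herc6, the main ISG15 ligase of the mouse, was at 0.722, 1.19 and 0.619 FPKM in OIR KO, 0.960, 0.623 and 0.992 FPKM in OIR WT and 0.493, 0.378 and 0.299 FPKM in RA WT, with nearly equal means in the OIR groups and a difference of 0.60 (SE 0.20, adjusted p = 0.0678) for OIR WT against RA WT.

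Among the antiviral effectors, Ifitm3 (chr7:141009586-141010770, minus strand), a membrane protein that blocks virus entry, was at 34.1, 58.8 and 23.3 FPKM in OIR KO, against 28.8, 24.1 and 38.1 FPKM in OIR WT and 8.41, 10.6 and 10.6 FPKM in RA WT. The OIR groups overlapped and both were far above RA WT, with the OIR KO 2 level above that of every other library. The difference was 1.55 (SE 0.31, adjusted p = 0.0132) for OIR WT against RA WT, 1.82 (SE 0.31, adjusted p = 0.0105) for OIR KO against RA WT and 0.27 (SE 0.31, adjusted p = 0.828) for OIR KO against OIR WT, and both calls held without any single library.

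Bst2 (chr8:71534255-71537456, minus strand), also called tetherin, holds budding virus at the cell surface, and its promoter is printed above. Bst2 was at 9.42, 14.8 and 7.79 FPKM in OIR KO, against 6.19, 6.12 and 10.1 FPKM in OIR WT and 2.71, 2.21 and 3.51 FPKM in RA WT. The lowest OIR library was above the highest RA WT library, and the OIR groups overlapped through OIR WT 3. The difference was 1.25 (SE 0.26, adjusted p = 0.0136) for OIR WT against RA WT, 1.72 (SE 0.26, adjusted p = 0.00601) for OIR KO against RA WT and 0.47 (SE 0.26, adjusted p = 0.606) for OIR KO against OIR WT. The call for OIR WT was lost without RA WT 2 (adjusted p = 0.0509), and that for OIR KO held without any single library.

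Oasl2 (chr5:114896936-114912234, plus strand), an oligoadenylate synthetase-like protein, was at 7.03, 10.9 and 5.76 FPKM in OIR KO, against 4.52, 4.14 and 6.26 FPKM in OIR WT and 2.31, 3.09 and 2.17 FPKM in RA WT. Every OIR library was higher than every RA WT library, and OIR WT 3 lay within the OIR KO range. The difference was 0.85 (SE 0.23, adjusted p = 0.0343) for OIR WT against RA WT, 1.44 (SE 0.23, adjusted p = 0.00654) for OIR KO against RA WT and 0.59 (SE 0.23, adjusted p = 0.446) for OIR KO against OIR WT. The OIR WT call was lost without any 1 of OIR WT 1, OIR WT 3, RA WT 1 or RA WT 3 (adjusted p of 0.0802 to 0.116), without a filter on low values (adjusted p = 0.0565), with a Y-linked covariate (adjusted p = 0.0683) and with the replicate block (adjusted p = 0.0606), and the OIR KO call held without any single library.

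Ifit1 (chr19:34640871-34650009, plus strand), which binds RNA with an unmethylated cap, was at 2.44, 3.01 and 1.05 FPKM in OIR KO, against 0.841, 0.458 and 1.13 FPKM in OIR WT and 0.331, 0.538 and 0.281 FPKM in RA WT. OIR KO 1 and OIR KO 2 stood well above the rest, OIR KO 3 lay within the OIR WT range, and OIR WT overlapped RA WT. The difference was 1.52 (SE 0.31, adjusted p = 0.015) for OIR KO against RA WT, 0.55 (SE 0.31, adjusted p = 0.262) for OIR WT against RA WT and 0.98 (SE 0.31, adjusted p = 0.35) for OIR KO against OIR WT. The call was lost without any 1 of OIR KO 1, OIR KO 2 or RA WT 3 (adjusted p of 0.0503 to 0.063). Its neighbour Ifit3 on chromosome 19 was at 9.40, 14.01 and 5.38 FPKM in OIR KO, 3.38, 3.55 and 5.71 FPKM in OIR WT and 4.56, 4.77 and 5.56 FPKM in RA WT, with OIR WT not above RA WT on average and 1.04 (SE 0.31, adjusted p = 0.33) for OIR KO against OIR WT. The longest transcripts of Ifit3 and Ifit3b were 97.8% identical over 1700 aligned bases, so the split of reads between them is uncertain. Ifit2, of the same cluster, lay between 4.17 FPKM in OIR KO 2 and 2.44 FPKM in RA WT 3 and was not called.

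Cmpk2 was the exception of the list. It encodes a mitochondrial nucleotide kinase (chr12:26469204-26479837, plus strand), and was at 3.49, 3.74 and 3.58 FPKM in OIR KO, against 2.36, 2.15 and 2.26 FPKM in OIR WT and 4.72, 4.78 and 4.68 FPKM in RA WT. The 3 groups did not overlap: OIR KO lay below RA WT and above OIR WT, with little spread inside each group. Means were 3.60 ± 0.129 FPKM in OIR KO, 2.26 ± 0.107 FPKM in OIR WT and 4.73 ± 0.0493 FPKM in RA WT (mean ± SD, n = 3 each). The difference was -0.92 (SE 0.10, adjusted p = 0.00126) for OIR WT against RA WT, a call that held without any single library. It was 0.57 (SE 0.10, adjusted p = 0.0933) for OIR KO against OIR WT and -0.35 (SE 0.10, adjusted p = 0.0592) for OIR KO against RA WT, neither called. With each library centred on its median, the adjusted p of the last was 0.0447, with quantile normalization 0.0364, and without the trend and robust options 0.0287.

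Rsad2, which encodes the antiviral enzyme viperin, lies next to Cmpk2 on chromosome 12, on the opposite strand with 12751 bases between them. Rsad2 was at 0.909, 2.94 and 0.245 FPKM in OIR KO, 0.344, 0.275 and 0.305 FPKM in OIR WT and 0.132, 0.157 and 0.163 FPKM in RA WT. It was higher in every OIR library than in every RA WT library, the reverse of Cmpk2, and stood apart in OIR KO 2. It failed the filter on low values and has no test.

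Parp14 (chr16:35832874-35871544, minus strand), an ADP-ribosyltransferase, was at 1.30, 2.13 and 1.17 FPKM in OIR KO, against 0.967, 0.714 and 1.00 FPKM in OIR WT and 0.554, 0.763 and 0.628 FPKM in RA WT. The OIR KO libraries were above every library of the other groups, and OIR WT overlapped RA WT. The difference was 0.80 (SE 0.19, adjusted p = 0.0298) for OIR KO against RA WT, 0.28 (SE 0.19, adjusted p = 0.37) for OIR WT against RA WT and 0.52 (SE 0.19, adjusted p = 0.423) for OIR KO against OIR WT. The call was lost without any 1 of OIR KO 1, OIR KO 2, RA WT 1, RA WT 2 or RA WT 3 (adjusted p of 0.0516 to 0.0872), with only the 6 libraries compared (adjusted p = 0.0568) and with the replicate block (adjusted p = 0.0609).

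The other tested effectors were not called in any comparison. Parp9, a partner of the ubiquitin ligase encoded by Dtx3l, was at 2.69, 3.45 and 1.89 FPKM in OIR KO, 2.10, 1.62 and 2.88 FPKM in OIR WT and 1.51, 1.503 and 1.36 FPKM in RA WT. Dtx3l was at 1.03, 1.71 and 0.859 FPKM in OIR KO, 0.988, 0.993 and 1.28 FPKM in OIR WT and 0.799, 0.881 and 0.995 FPKM in RA WT, and the exons of the pair share 458 bases on opposite strands, so the pair is uncertain singly. Eif2ak2, which encodes the RNA-activated kinase PKR, was at 2.003, 2.81 and 1.19 FPKM in OIR KO, 1.84, 1.40 and 1.84 FPKM in OIR WT and 0.865, 0.959 and 0.856 FPKM in RA WT. All OIR libraries were above RA WT for Eif2ak2 and overlapped it for Dtx3l, and the Eif2ak2 difference for OIR KO against RA WT was 0.79 (SE 0.22, adjusted p = 0.0514). Samhd1, which degrades nucleotides that viruses need, lay in a narrow range, at 10.9, 12.3 and 11.9 FPKM in OIR KO, 12.1, 11.9 and 10.9 FPKM in OIR WT and 11.1, 11.2 and 9.99 FPKM in RA WT, with 0.11 (SE 0.09, adjusted p = 0.457) for OIR WT against RA WT.

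**Figure D4:**
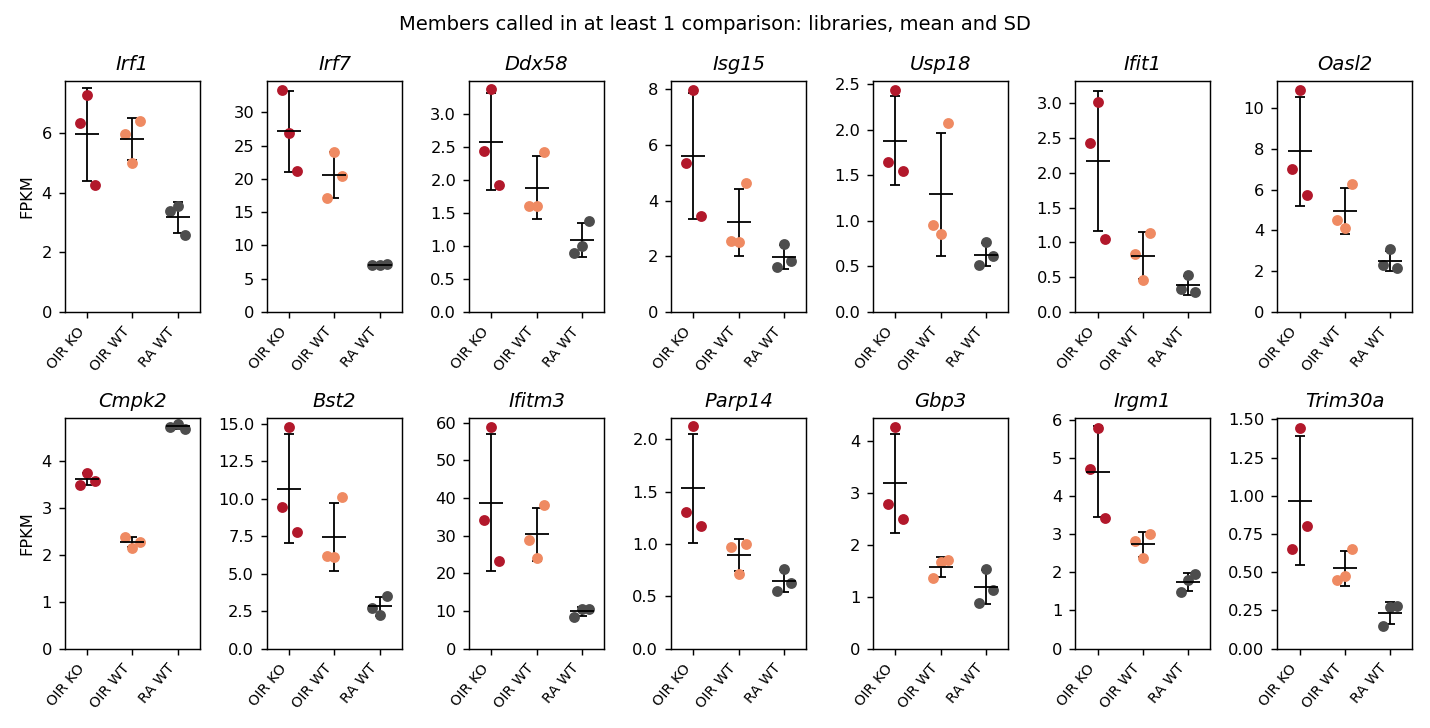
FPKM (y axis, from 0) of the 14 members called in at least 1 comparison, in OIR KO, OIR WT and RA WT; points are libraries, horizontal bars the mean and vertical bars the SD of 3. For 13 members the OIR KO points sit above the RA WT points, while Cmpk2 runs the other way, near 3.60 FPKM in OIR KO, 2.26 FPKM in OIR WT and 4.73 FPKM in RA WT.

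The interferon-inducible GTPases attack vacuoles that hold pathogens. All 6 were tested, none was called for OIR WT against RA WT or OIR KO against OIR WT, and Gbp3 and Irgm1 rose for OIR KO against RA WT. Irgm1 (chr11:48861968-48871683, minus strand), an immunity-related GTPase that acts in autophagy, was at 4.72, 5.80 and 3.41 FPKM in OIR KO, against 2.83, 2.38 and 2.99 FPKM in OIR WT and 1.48, 1.80 and 1.95 FPKM in RA WT. The 3 groups did not overlap, with OIR KO highest and RA WT lowest. The difference was 1.18 (SE 0.18, adjusted p = 0.00601) for OIR KO against RA WT, 0.53 (SE 0.18, adjusted p = 0.0789) for OIR WT against RA WT and 0.65 (SE 0.18, adjusted p = 0.3) for OIR KO against OIR WT, and its call held without any single library. The difference for OIR WT against RA WT was called when OIR KO 2 (adjusted p = 0.0495) or OIR KO 3 (adjusted p = 0.0440) was left out of the shared fit.

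Gbp3 (chr3:142560026-142573209, plus strand), a guanylate-binding protein, was at 2.79, 4.29 and 2.504 FPKM in OIR KO, against 1.36, 1.67 and 1.72 FPKM in OIR WT and 0.889, 1.54 and 1.14 FPKM in RA WT. The lowest OIR KO library was above every library of the other groups, and OIR WT overlapped RA WT. The difference was 1.12 (SE 0.21, adjusted p = 0.0109) for OIR KO against RA WT, 0.32 (SE 0.21, adjusted p = 0.334) for OIR WT against RA WT and 0.80 (SE 0.21, adjusted p = 0.243) for OIR KO against OIR WT, and the call held without any single library. Gbp6 was at 2.39, 3.04 and 2.37 FPKM in OIR KO, 1.81, 1.67 and 1.41 FPKM in OIR WT and 1.81, 1.33 and 0.525 FPKM in RA WT, and its longest transcript is 97.8% identical to that of Gbp10 over 2607 aligned bases. In Gbp6 too each OIR KO library was above each OIR WT library, with 0.92 (SE 0.26, adjusted p = 0.0521) for OIR KO against RA WT. Gbp2 was at 1.49, 5.30 and 1.11 FPKM in OIR KO, 2.46, 1.11 and 1.84 FPKM in OIR WT and 0.593, 0.879 and 0.899 FPKM in RA WT, with OIR KO 2 well above all other libraries. Gbp7 lay between 2.44 FPKM in OIR KO 2 and 0.607 FPKM in RA WT 3, and Igtp between 4.17 FPKM in OIR KO 2 and 1.61 FPKM in RA WT 1.

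Of the remaining induced genes, Trim30a rose for OIR KO against RA WT. Trim30a (chr7:104409025-104465193, minus strand), a tripartite motif protein that restrains inflammatory signalling in the mouse, was at 0.655, 1.45 and 0.805 FPKM in OIR KO, against 0.447, 0.474 and 0.654 FPKM in OIR WT and 0.147, 0.270 and 0.281 FPKM in RA WT. The OIR groups were just apart, with OIR KO 1 a little above OIR WT 3, and no RA WT library reached 0.5 FPKM. The difference was 0.97 (SE 0.21, adjusted p = 0.0195) for OIR KO against RA WT, 0.48 (SE 0.21, adjusted p = 0.152) for OIR WT against RA WT and 0.49 (SE 0.21, adjusted p = 0.484) for OIR KO against OIR WT. The call was lost without any 1 of OIR KO 2, RA WT 1 or RA WT 3 (adjusted p of 0.0533 to 0.0572).

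Rtp4, a receptor transporter, was at 3.29, 2.99 and 0.954 FPKM in OIR KO, 1.15, 1.04 and 2.21 FPKM in OIR WT and 0.610, 0.579 and 0.891 FPKM in RA WT, with OIR KO 1 and OIR KO 2 high and OIR KO 3 near RA WT. Lgals3bp, a secreted galectin ligand, was at 9.47, 14.3 and 8.86 FPKM in OIR KO, 6.78, 6.69 and 10.1 FPKM in OIR WT and 4.16, 6.09 and 8.58 FPKM in RA WT, and Xaf1, which binds the apoptosis inhibitor XIAP, at 3.86, 5.52 and 2.92 FPKM in OIR KO, 1.89, 3.12 and 3.13 FPKM in OIR WT and 2.05, 2.65 and 1.996 FPKM in RA WT. For these 3 genes the OIR KO libraries were above RA WT and overlapped OIR WT, and none was called. Ifi27, a small mitochondrial protein, had 0.63 (SE 0.21, adjusted p = 0.0795) for OIR KO against RA WT, and Ifi35 had 0.45 (SE 0.23, adjusted p = 0.235). Ifi44 was not tested and lay between 0.809 FPKM in OIR KO 2 and 0.113 FPKM in RA WT 3.

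The libraries of OIR KO did not share 1 level. OIR KO 2 was the highest of its group in 35 of the 38 members, all except Irf7, Rtp4 and Dhx58, and highest of the 9 libraries in 34. OIR KO 3 was the lowest of its group in 32. OIR KO 2 was above every OIR WT library in all 38 members, OIR KO 1 in 20 and OIR KO 3 in 8, while OIR KO 3 was below every OIR WT library in 10. Among the 35 tested members these counts were 35 for OIR KO 2, beside 27.8% of all genes, 18 for OIR KO 1, beside 29.0%, and 8 for OIR KO 3, beside 27.9%. Within OIR WT, OIR WT 3 was the highest in 27 of the 38 members and OIR WT 2 the lowest in 25. The share over all genes was not computed for the count below OIR WT or for the counts of highest and lowest library.

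Markers of other cells differed between the same libraries. Of 14 tested microglia and macrophage markers, 9 rose in OIR KO against RA WT, beside 4.75% of all genes. The same number rose in OIR WT against RA WT, beside 8.04%. The summed FPKM of all 15 markers ranged from 75.6 to 95.5 in OIR KO, 86.4 to 113 in OIR WT and 36.2 to 43.0 in RA WT. None of them was at 0 in all libraries. Endothelial markers summed to 114 to 149 in OIR KO, 87.1 to 115 in OIR WT and 72.3 to 96.7 in RA WT, with OIR KO 2 highest of all. The 5 erythrocyte markers summed to 112, 1069.9 and 113 in OIR KO, 512 to 1431 in OIR WT and 82.5 to 158 in RA WT, so OIR KO 2 resembled OIR WT there and the other OIR KO libraries resembled RA WT. The 4 lens markers, of a tissue outside the retina, summed to 13.8 in OIR KO 2 and 22.6 in RA WT 1, against at most 3.62 in the other libraries. The 6 markers of infiltrating myeloid cells summed to 0.209, 2.10 and 0.278 in OIR KO, 1.11 to 1.61 in OIR WT and 0.0459 to 0.0748 in RA WT, with Chil3 listed at 0 throughout, and those of lymphocytes to at most 1.62. The 6 Mueller glia and astrocyte markers summed to 940 to 1159 in OIR KO, 661 to 923 in OIR WT and 1273 to 1658 in RA WT. These sums did not overlap between the groups. The highest single value in this list was 1268 FPKM, so a single gene can carry much of a sum. Of these markers 2 rose and 3 fell for OIR WT against RA WT, beside 8.04% and 7.92% of all genes. None was called for OIR KO. Of 12 neuronal markers 2 fell for OIR KO against RA WT, beside 5.69% of all genes. For OIR WT against RA WT 3 fell, beside 7.92%, and the sums of the neuronal markers overlapped. Their part in the members' levels, too, was not tested. Without RA WT 1 and OIR KO 2 together, a choice made after seeing the data, 5 members rose for OIR KO against RA WT, with a median difference of 0.48, and 7 for OIR WT against RA WT.

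**Figure D5:**
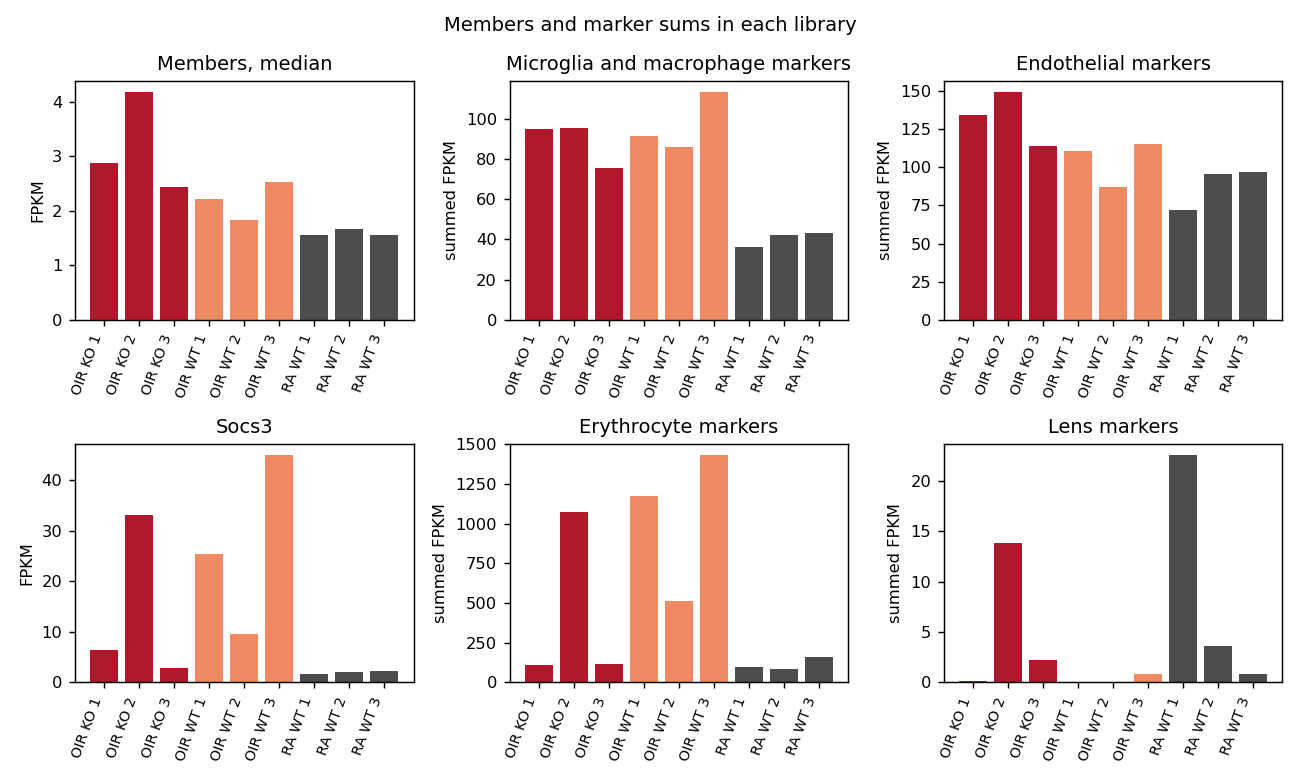
Median FPKM of the 38 members, summed FPKM of microglia and macrophage, endothelial, erythrocyte and lens markers, and FPKM of Socs3 (y axes, from 0) in each library (bars; OIR KO red, OIR WT orange, RA WT grey). OIR KO 2 has the highest median of the members (4.17 FPKM) and of the endothelial sum, and stands apart from the other OIR KO libraries in Socs3 and the erythrocyte and lens sums.

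Upstream of the members, the interferons themselves were at or near 0 in the table. Of 10 interferon ligand genes, 8, Ifnb1 and Ifng among them, were listed at 0 in all libraries, Ifne was at 0.0402 FPKM in OIR KO 2 alone and Ifnl2 at 0.0407 FPKM in RA WT 2 alone. Of 8 tested receptor and kinase genes none was called by limma in any comparison, with 1 at an unadjusted p under 0.05 for OIR KO against OIR WT, beside 9.91% of all genes, 1 for OIR KO against RA WT, beside 27.6%, and 3 for OIR WT against RA WT, beside 30.4%. The highest-level gene of this group, the kinase gene Jak1, was at 21.01, 21.6 and 23.4 FPKM in OIR KO, 23.5, 23.2 and 23.0 FPKM in OIR WT and 23.4, 20.7 and 23.9 FPKM in RA WT and overlapped between the groups.

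Of 4 tested IRF genes outside the members, 2 rose for OIR WT against RA WT, beside 8.04% of all genes. For OIR KO against RA WT 1 rose, beside 4.75%. Irf8, a factor of microglia and other myeloid cells, was at 1.76, 3.23 and 1.59 FPKM in OIR KO, against 3.45, 2.79 and 3.66 FPKM in OIR WT and 0.621, 0.634 and 0.806 FPKM in RA WT, every OIR library above RA WT, with 1.67 (SE 0.22, adjusted p = 0.00232) for OIR WT and 1.14 (SE 0.22, adjusted p = 0.0121) for OIR KO. Irf2 rose by 0.37 (SE 0.09, adjusted p = 0.0224) for OIR WT against RA WT. Irf3, the highest-level of these genes and a factor activated by the sensors, was at 34.4, 33.0 and 34.5 FPKM in OIR KO, 30.1, 31.0 and 27.9 FPKM in OIR WT and 41.0, 48.3 and 30.3 FPKM in RA WT without a call. Of 10 tested genes of nucleic acid sensing, 3 rose for OIR WT against RA WT, beside 8.04% of all genes. Tmem173, which encodes STING, rose by 1.31 (SE 0.27, adjusted p = 0.0117). The adaptor gene Myd88 rose by 0.81 (SE 0.21, adjusted p = 0.0272) and the adaptor gene Ticam1 by 0.62 (SE 0.19, adjusted p = 0.0483). For OIR KO against RA WT 2 of these 10 rose, beside 4.75% of all genes. They were Tmem173 and Ifi204, the last named after its values were seen. For OIR KO against OIR WT none rose. Traf3, the highest-level of the sensing genes, was at 10.7, 10.7 and 11.3 FPKM in OIR KO, 11.5, 12.3 and 12.6 FPKM in OIR WT and 14.5, 11.1 and 12.6 FPKM in RA WT and was not called.

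Of 10 tested nucleases and brakes on interferon signalling, Socs3 and Isg20 rose for OIR WT against RA WT, beside 8.04% of all genes. No other call was made in this group. Socs3, which inhibits cytokine receptor kinases, was at 6.33, 33.2 and 2.90 FPKM in OIR KO, against 25.4, 9.59 and 45.0 FPKM in OIR WT and 1.55, 2.01 and 2.15 FPKM in RA WT. All OIR libraries were above RA WT, and OIR KO 2 was the highest of its group, as for most members. The difference was 3.26 (SE 0.83, adjusted p = 0.0333) for OIR WT against RA WT and 1.95 (SE 0.83, adjusted p = 0.172) for OIR KO against RA WT. Its call was lost without any 1 of OIR KO 1, OIR WT 1, OIR WT 3, RA WT 1, RA WT 2 or RA WT 3 (adjusted p of 0.0521 to 0.105). Pias1, an inhibitor of STAT signalling and the highest-level gene of this group, was at 19.4, 19.0 and 19.0 FPKM in OIR KO, 19.3, 21.4 and 19.0 FPKM in OIR WT and 17.8, 17.0 and 16.2 FPKM in RA WT and was not called.

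Another list of 53 interferon-stimulated genes outside the members had 52 in the table and 32 tested. It too was chosen with earlier results of these data known. Of the 32, 3 rose for OIR WT against RA WT, Ifitm2, Ube2l6 and Mlkl, beside 8.04% of all genes. None was called for OIR KO against OIR WT, where 10 of the 32 had an unadjusted p under 0.05, beside 9.91% of all genes, the difference was above 0 in 28, beside 49.3%, and its median was 0.34. For OIR KO against RA WT 10 rose, beside 4.75% of all genes, and none fell, beside 5.69%. The median was 0.63, beside 0.02 over all genes. Counts above 0 and medians of this list were not computed without OIR KO 2. Ifitm2, a relative of Ifitm3, was at 20.5, 30.3 and 15.04 FPKM in OIR KO, against 25.5, 14.00 and 24.2 FPKM in OIR WT and 5.57, 6.18 and 10.7 FPKM in RA WT, and Mlkl, the executor of necroptosis, at 0.889, 1.23 and 0.460 FPKM in OIR KO, against 0.870, 0.498 and 0.872 FPKM in OIR WT and 0.0462, 0.0633 and 0.171 FPKM in RA WT. Both had all OIR libraries above RA WT and overlapping OIR groups. Mlkl reached 0.5 FPKM only in OIR libraries, so its difference from RA WT is partly fixed by the filter. Ube2l6, the enzyme that carries ISG15 to its targets, had 1.25 (SE 0.30, adjusted p = 0.0219) for OIR WT against RA WT. The highest-level gene of this list, Trafd1, was at 138, 104 and 148 FPKM in OIR KO, 105, 120 and 94.2 FPKM in OIR WT and 135, 118 and 116 FPKM in RA WT and was not called.

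Antigen presentation genes are also induced by interferon gamma. Of 13 tested, B2m, H2-K1, H2-D1, Psmb8, Cd74 and H2-Ab1 rose for OIR WT against RA WT, beside 8.04% of all genes. For OIR KO against RA WT 5 rose, beside 4.75% of all genes. None was called for OIR KO against OIR WT, where 2 had an unadjusted p under 0.05, beside 9.91% of all genes. The median difference in that comparison was -0.01, beside 0.38 for the members. H2-Ab1, a chain of class II, was at 5.70, 8.06 and 4.52 FPKM in OIR KO, against 13.1, 8.51 and 11.2 FPKM in OIR WT and 0.665, 0.328 and 1.13 FPKM in RA WT, with 3.28 (SE 0.27, adjusted p = 0.000357) for OIR WT against RA WT and -0.81 (SE 0.27, adjusted p = 0.393) for OIR KO against OIR WT. B2m, the light chain of class I, was at 68.6, 99.7 and 47.2 FPKM in OIR KO, against 65.9, 50.3 and 84.5 FPKM in OIR WT and 23.1, 33.8 and 26.4 FPKM in RA WT. Each OIR library was above each RA WT library for both genes. The difference between the medians of the lists was not tested.

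Most calls of these genes outside the members were lost when a single library was left out. Calls over all genes also fell, for OIR WT against RA WT from 2503 to 1031 without OIR WT 1. For OIR KO against RA WT they fell from 1636 to 725 without OIR KO 2. Of their 16 calls for OIR WT against RA WT, those of Irf8, Tmem173 and H2-Ab1 held without any single library, and 13 were lost without at least 1 library, OIR WT 1 in all 13, OIR WT 3 or RA WT 2 in 12 each and RA WT 1 in 11, at adjusted p of 0.0509 to 0.153. Of their 18 calls for OIR KO against RA WT, those of Irf8 and H2-Ab1 held. The other 16 were lost without OIR KO 2, and 14 without RA WT 1, 13 without RA WT 3 and 12 without OIR KO 1. The adjusted p was 0.0503 to 0.145 over the libraries that ended them.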

How the data were processed

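Retinal RNA of 9 libraries was analysed, in 3 groups of 3. Frozen retinas were extracted with Trizol and an NEBNext Ultra kit made the libraries, per the labels' protocols. HISAT2 and build GRCm38 are named by the submitters' processing notes. The authors deposited 1 table of FPKM values, 1 column per library; no source used here gives the HISAT2 version, the quantifier, the annotation or the strand setting. Only 26.7 to 29.8% of the low values of a library came within 0.02 of a whole step, too few to recover reads, so no count test was run, depth is known only in relative terms and no counting interval is given. A value of 0 is described as listed at 0.

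Values were taken as log2(FPKM + 0.5) without further scaling. Genes with at least 0.5 FPKM in at least 3 libraries were kept. limma 3.58.1 (R 4.3.3) fitted all 9 libraries with 1 mean per group, with the trend and robust options, and its moderated two-sided test was adjusted by Benjamini-Hochberg over all kept genes. The fit was tested on simulated data. Members called in any comparison are named with every library; other lists are named by calls for OIR WT against RA WT or OIR KO against OIR WT, at most 6 a list, plus the highest-level gene. The members and lists were chosen with earlier results of these data known. One gene of the receptor and kinase list is not reported here. Coordinates came from GENCODE M21 and promoters from RefSeq. Identity of near copies was planned on proteins and was computed from the longest protein-coding transcripts (local alignment, Biopython 1.88). Alternatives changed the pseudocount, filter, scaling, libraries in the fit, moderation, replicate number and a Y-linked covariate.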

Additional observations from a re-analysis of the deposited data

How the results depend on the processing

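The median difference of the members stayed above 0 in all 3 comparisons under every alternative run, and the 0 calls for OIR KO against OIR WT and the 1 lower call for OIR WT against RA WT (Cmpk2) did not change. Leaving out each library in turn gave 3 to 12 members higher for OIR WT against RA WT and 6 to 19 for OIR KO against RA WT, where the median lay between 0.53 and 0.97. Over all genes the calls then lay between 1031 and 2814 for OIR WT against RA WT, 11 and 42 for OIR KO against OIR WT, and 709 and 1791 for OIR KO against RA WT.

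Same-numbered libraries did not deviate together (correlations of -0.353 to 0.134), so the numbers gave no pairing. With the replicate block, 4 members were called higher for OIR WT against RA WT and 10 for OIR KO against RA WT, and the calls over all genes were 1692 for OIR WT against RA WT, 8 for OIR KO against OIR WT and 1081 for OIR KO against RA WT; Oasl2 lost its call for OIR WT, and Isg15, Usp18, Ddx58 and Parp14 theirs for OIR KO, against RA WT, while Ifi27 gained a call for OIR KO against RA WT (adjusted p = 0.0471).

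With only the 6 libraries compared, 8 members were called higher for OIR WT against RA WT. With median centring, quantile normalization or no trend and robust options, 1 member (Cmpk2) was called lower for OIR KO against RA WT. OIR KO against OIR WT gave 13 calls over all genes with a filter at 1 FPKM, and 13 without the trend and robust options. The Y-linked covariate left 1581 calls for OIR WT against RA WT. Without RA WT 1 and OIR KO 2 together, chosen after seeing the data, OIR KO against RA WT had 521 calls, 5 members higher and a median of 0.48. The cause of these shifts was not tested, beyond the fewer genes or libraries some settings hold. Of 837 refits of 42 differences of the named members, 779 kept their side of the threshold, 53 lost a call and 5 gained one. None changed sign where either fit had a call, and sign changes of uncalled differences were not counted. Of 1539 refits of 78 differences of 26 pathway genes outside the members, 1322 kept their side, 209 lost a call and 8 gained one. Here too none changed sign where either fit had a call, and sign changes of uncalled differences were not counted. The replicate block ended 19 of those calls. Depth in reads is unknown, so how far it limits the low members is too.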
